A study of Mus musculus with 23 samples.

Results

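Mono(2-ethylhexyl) phthalate (MEHP) is the metabolite that the body makes from the plasticizer di(2-ethylhexyl) phthalate. Its transcriptional effect was read on 8 of the 23 arrays of the series, namely the 4 titled as MEHP and the 4 titled as vehicle. TM4 cells, an immortalized line derived from mouse Sertoli cells, were exposed for 48 hours to 100 µM MEHP in 1.0% DMSO or to 1.0% DMSO alone, with 4 biological replicates in each group. The other 15 arrays carried the plasticizers DINCH, DOM, BDB and DOS at the same concentration and time, and 3 of these groups served as second references. RNA was labelled with Cy3 and hybridized to one-colour 8x60K mouse arrays, which hold 55681 different probes.

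Sertoli cells line the seminiferous tubule, feed the germ cells with lactate, lipids and retinoic acid, and seal the blood-testis barrier. Phthalate monoesters are known ligands of the peroxisome proliferator-activated receptors (PPARs), nuclear receptors that switch on fatty acid oxidation. Sterol regulatory element binding proteins (SREBPs) are the matching switch for the making of sterols and fatty acids. The question taken up here was which genes outside cholesterol synthesis and the PPAR programme changed under MEHP, and which groups of genes did not pass the test.

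The line matched its label in part. Of 20 Sertoli cell markers on the array, 10 were well above background on all 8 arrays, among them Sox9, Gata4, Dhh, Dmrt1 and Nr5a1, whereas 7 were above background on none, including Wt1, Amh and Fshr. The androgen synthesis gene Cyp17a1, counted with the Leydig cell markers, was above background on all 8 arrays while 4 of the 6 Leydig markers, Cyp11a1 and Lhcgr among them, were so on none. The macrophage markers Csf1r, Itgam and Cd14 were also measured on every array, and Ptprc and Adgre1 on none. Prm1 and Tnp1 of the germ cell markers were above background on all 8 arrays, and Ddx4 and Dazl on none. Of 5 peritubular myoid cell markers, Acta2, Tagln and Cnn1 were above background on all 8 arrays and Myh11 on none, with log2 fold changes of -0.42, -0.07 and 0.49 for the first 3. Not one of the markers of the 5 cell types was called between MEHP and DMSO. Dhh, the desert hedgehog signal of Sertoli cells, came nearest, with a log2 fold change of 0.49 ± 0.10 (SE) and an adjusted p of 0.0462 at a size under the limit of 1.5-fold.

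The arrays were of similar brightness, with a 75th percentile signal between 234 and 327 and between 45.2% and 51.4% of the spots well above background on the 8 arrays. One library stood apart in a small area. On DMSO replicate 4, a patch of spots in rows 288 to 316 and columns 105 to 116 held 68 probes that were more than 2 log2 units below every other array. A smaller one with 10 such probes lay near an edge of MEHP replicate 3. Of 102 tested probes with a gene name inside the patch of DMSO replicate 4, 47 differed more than 2-fold between MEHP and DMSO as measured, and 0 did after that array was left out for those probes, while none of the 102 was called either way. Thbs2, Fbln1 and Ppard lay there, and their log2 fold changes of 1.29, 1.30 and 1.23 became -0.58, 0.18 and 0.11 without that array.

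Levels are given below as log2 signal minus the 75th percentile of the same array, so that 0 is that percentile. A gene was called when a probe had a Benjamini-Hochberg adjusted p under 0.05 in limma and a change above 1.5-fold. MEHP changed 201 of 11948 tested genes, or 1.68%. Of these, 135 rose (1.13%) and 66 fell (0.552%), and 45 of them changed more than 2-fold, 23 upward and 22 downward. The median change of the risers was 1.67-fold and that of the fallers 1.75-fold, against a median log2 fold change of -0.01 over all tested genes. No array of one group overlapped the other in any of the 201 genes, whereas 14.4% of all tested genes showed such a separation. The calls were made on these same values and favour separated groups, so the separation is no independent support for them. A further 77 probes without a gene name passed the same limits.

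Cholesterol synthesis, sterol uptake and PPAR targets accounted for 24 of the called genes. In the first of these lists 16 of 22 tested members rose, with a median log2 fold change of 0.68. Among PPAR targets 6 of 23 rose (median 0.32), and 2 of 10 rose in the sterol uptake list (median 0.31). The remaining 177 genes, 111 that rose and 66 that fell, are the subject of what follows. Only 33 of them belonged to any of the 46 other functional lists examined, and 144 belonged to none.

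**Figure D1:**
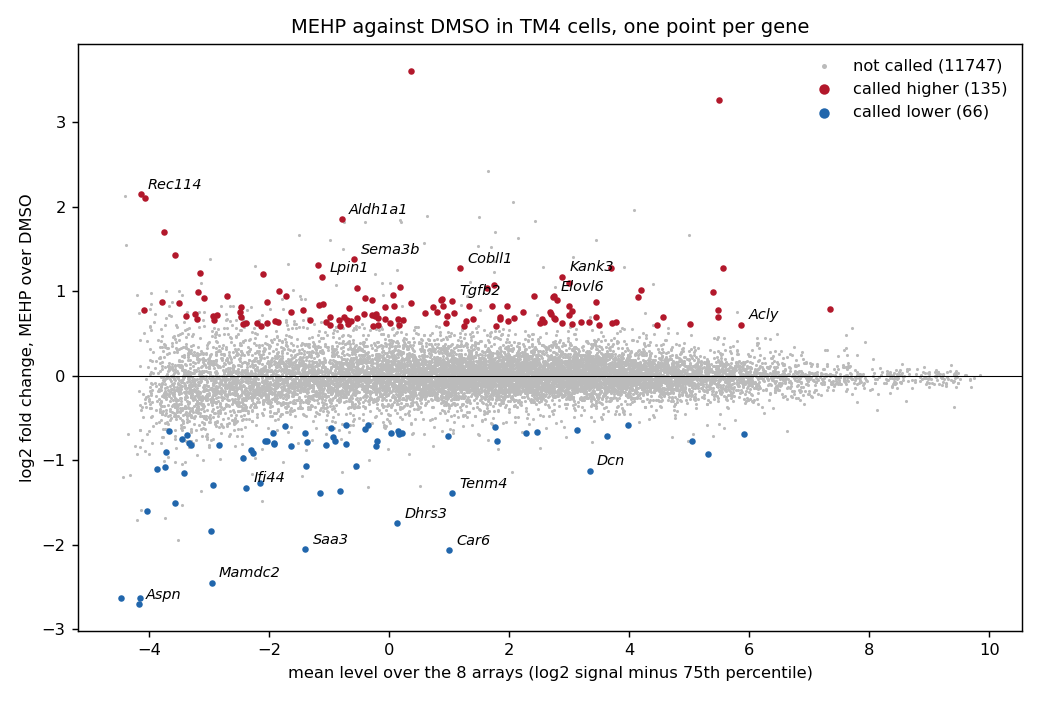
Each point is a gene, placed by its mean level over the 8 arrays (x axis, log2 signal minus 75th percentile) and its log2 fold change of MEHP over DMSO (y axis), with 135 genes called higher in red and 66 called lower in blue. The called genes lie at all levels, the dimmest changes such as Rec114 and Aspn at the left edge, and the grey points far above 0 that were not called include the genes under the dark patch of DMSO replicate 4.

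Aldh1a1, which oxidizes retinal to retinoic acid, rose the most outside the reference lists among genes above background on all 8 arrays. Its levels on the MEHP arrays were 0.13, 0.23, 0.02 and 0.16, and on the DMSO arrays -1.80, -1.64, -1.66 and -1.77. The spread within each group was thus a small part of the gap, which came to a log2 fold change of 1.85 ± 0.08 (SE), or 3.62-fold (adjusted p = 3.65e-05). It was the one gene outside the reference lists that was called under all 20 other settings tried.

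Dhrs3, which works the other way by reducing retinal to retinol, had the opposite pattern. It measured -1.02, -0.66, -0.51 and -0.80 under MEHP and 0.53, 1.14, 1.15 and 1.20 under DMSO, a fall of 3.36-fold (log2 fold change -1.75 ± 0.17, adjusted p = 0.00581). DMSO replicate 1 was the lowest of its group and still above every MEHP array. Rdh11, another retinal reductase, rose 1.70-fold (adjusted p = 0.034), a call lost in 7 of the 8 fits that left out 1 array. Of 11 tested retinoid genes, 3 were called, against 1.68% of all tested genes. The receptor Rxra had an adjusted p of 0.0229 but a log2 fold change of 0.57, just under the limit, and Rara and Rarg differed by 0.02 and 0.07.

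Among genes of guidance and cell shape, Sema3b, a secreted semaphorin, measured 0.10, 0.11, 0.01 and 0.18 under MEHP and -1.44, -1.37, -1.32 and -0.98 under DMSO. The 2.60-fold rise (log2 1.38 ± 0.11, adjusted p = 0.00287) was called in all 8 fits that left out 1 array. Kank3, of a family that links integrin adhesions to microtubules, stood at 3.46, 3.38, 3.46 and 3.56 under MEHP and 1.96, 2.44, 2.32 and 2.46 under DMSO, a rise of 2.25-fold (adjusted p = 0.00614). Ngef, a guanine nucleotide exchange factor that acts downstream of Eph receptors, rose 2.47-fold (adjusted p = 0.0201), and Cobll1 rose 2.42-fold on 2 of 2 probes (adjusted p = 0.022). In both of these genes replicate 1 was the highest array of its own group. Of the 8 fits that left out 1 array, Ngef was called in 4 and Cobll1 in 3.

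Lpin1, the phosphatidate phosphatase that makes diacylglycerol, rose 2.24-fold from levels of -1.59, -2.01, -1.86 and -1.35 to -0.44, -0.61, -0.67 and -0.44 (adjusted p = 0.00855). The amino acid transporter Slc38a4 rose 2.33-fold (adjusted p = 0.0118) and Oit3 2.31-fold (adjusted p = 0.00481), each called in all 8 fits that left out 1 array.

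In 4 of the 12 genes that rose most, at least 1 DMSO array was not above background. These 4 genes entered the test through the MEHP arrays alone. Rec114, needed for meiotic DNA breaks, measured -2.12, -3.11, -3.30 and -3.74 under MEHP and -4.10, -5.62, -5.23 and -5.94 under DMSO, where 1 of 4 arrays was above background. Dnaaf3, which assembles the dynein arms of motile cilia, was above background on no DMSO array, so that its rise is at least 2.53-fold (adjusted p = 0.0215). Its p rests on DMSO signals below background. Pate14 rose 3.25-fold and Gramd2 2.70-fold as measured. With normexp background correction, which keeps low signals apart from 0 by an offset, the log2 fold changes of these 4 genes were 0.41, 0.38, 0.42 and 0.36 and none was called. Slc38a4, above background on all 8 arrays, lost its call there too at 0.44. Of the 8 fits that left out 1 array, Rec114 was called in 1, Dnaaf3 in 4, and Pate14 and Gramd2 in 2 each.

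**Figure D2:**
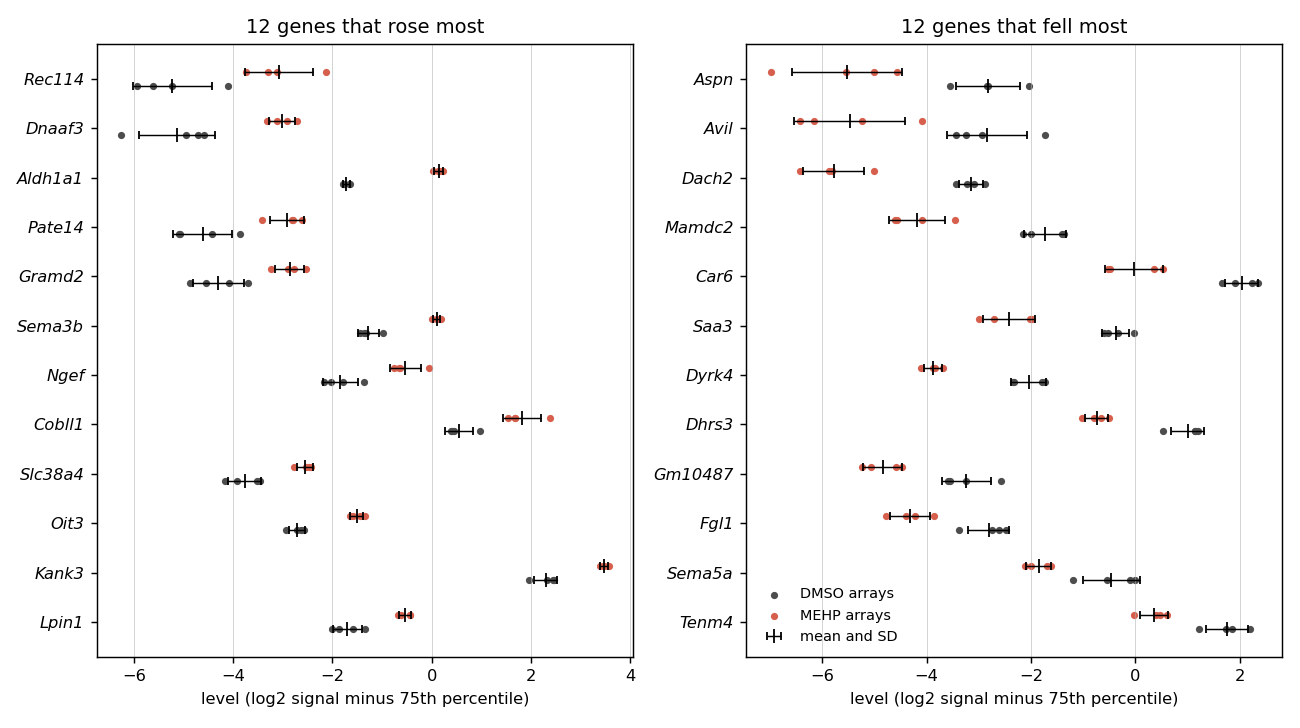
Levels of the 12 genes that rose most (left) and the 12 that fell most (right) outside the reference lists, on each MEHP array (red) and DMSO array (grey), with the mean and SD of the 4 arrays. The x axis is log2 signal minus the 75th percentile. Aldh1a1, Sema3b, Oit3 and Dhrs3 show tight groups, while Rec114, Aspn and Avil spread over more than 1 log2 unit within a group.

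The 12 genes that fell most code for proteins of several kinds. Car6, a secreted carbonic anhydrase, dropped 4.19-fold from 2.24, 1.66, 1.91 and 2.34 under DMSO to -0.52, -0.48, 0.53 and 0.36 under MEHP (log2 -2.07 ± 0.27, adjusted p = 0.0104). Saa3, an acute phase serum amyloid, dropped 4.16-fold, with levels of -0.52, -0.34, -0.61 and -0.03 under DMSO and -2.72, -2.99, -1.98 and -2.03 under MEHP (adjusted p = 0.0078). Both were called in all 8 fits that left out 1 array.

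Mamdc2, a secreted proteoglycan, fell 5.47-fold as measured (adjusted p = 0.00761) and was above background on 3 of 4 MEHP arrays. It entered the test through the DMSO arrays alone. Dyrk4, a kinase best known from testis, fell 3.57-fold, from -1.79, -2.33, -2.34 and -1.74 to -3.85, -3.70, -4.12 and -3.87 (adjusted p = 0.00481). The teneurin Tenm4 fell 2.62-fold (adjusted p = 0.0173) on 1 of its 2 probes, the other giving a log2 fold change of -0.37. Sema5a, a transmembrane semaphorin, fell 2.63-fold (adjusted p = 0.032), a call kept in 1 of the 8 fits that left out 1 array.

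Some of these genes were not above background on any MEHP array and have only a bound. They entered the test through the DMSO arrays alone, and their p values rest on MEHP signals below background. Dach2, a transcriptional cofactor of the dachshund family, was at least 2.54-fold lower (adjusted p = 0.00614). The small leucine-rich proteoglycan Aspn was at least 3.20-fold lower (adjusted p = 0.0342), the actin binding protein Avil at least 3.02-fold lower (adjusted p = 0.0473) and the predicted gene Gm10487 at least 2.35-fold lower (adjusted p = 0.0207). Fgl1, a secreted fibrinogen-like protein, fell 2.84-fold as measured and was above background on 2 MEHP arrays. It too entered the test through the DMSO arrays alone. With 1 array left out, Dach2 was called in all 8 fits, Gm10487 in 5, Fgl1 in 3, Aspn in 2 and Avil in 1. Under normexp the 5 genes Aspn, Avil, Dach2, Gm10487 and Fgl1 lost the call. The same dimness applied to Aars, the alanyl-tRNA synthetase, which was at least 1.90-fold lower on 1 probe while its other probe gave -0.28.

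Fatty acid synthesis was the functional list with the highest median change, 0.40 on the log2 scale, with 13 of 15 tested members above 0, compared with 47% of all tested genes. Of the 15 members 4 rose, against 1.13% of all tested genes. Acly, which makes cytosolic acetyl-CoA from citrate, measured 6.30, 6.14, 6.12 and 6.12 under MEHP and 5.63, 5.58, 5.59 and 5.45 under DMSO, a rise of 1.52-fold (adjusted p = 0.011). Fasn, the fatty acid synthase, measured -0.29, -0.23, -0.53 and -0.49 under MEHP and between -1.06 and -0.94 under DMSO, also near the limit at 1.53-fold (adjusted p = 0.0163).

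The fatty acid elongase Elovl6 rose 1.92-fold (adjusted p = 0.0151), and the desaturase Scd1 1.84-fold (adjusted p = 0.0356). Scd2, Fads2 and Acss2 had adjusted p values of 0.00875, 0.0228 and 0.0399 with log2 fold changes of 0.57, 0.54 and 0.42, under the limit of size. Srebf1, which codes for the SREBP that governs this pathway, had a log2 fold change of -0.16. Without MEHP replicate 1, MEHP replicate 2 or DMSO replicate 3, 1 of the 4 genes was called, and without DMSO replicate 4 it was 2. Of the fits that left out 1 array, Scd1 kept its call only in that without DMSO replicate 1. Fasn lost its call with normexp and with a slide block. In triglyceride handling Lpin1 rose and Dgat2, which adds the last fatty acid to triglyceride, fell by 0.68 on the log2 scale (adjusted p = 0.036), with the other 12 of 14 tested members not called. The call of Dgat2 held in 1 of the 8 fits that left out 1 array and was lost with normexp.

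Several risers in no list handle the same precursors and were picked out after their values were seen. The mitochondrial citrate carrier Slc25a1 rose by 0.83 ± 0.10 on the log2 scale, the NADPH-forming isocitrate dehydrogenase Idh1 by 0.71 ± 0.08, and the acetoacetyl-CoA synthetase Aacs by 0.64 ± 0.09. For phospholipids and sphingolipids, Pcyt2 (phosphatidylethanolamine synthesis) rose by 0.70, Lpcat3 (remodelling with polyunsaturated chains) by 0.72 and the ceramide synthase Cers4 by 0.81. Soat2, which esterifies cholesterol, fell by 1.07 on the log2 scale (adjusted p = 0.0388), and its call held in 1 of the 8 fits that left out 1 array.

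Type I interferon-induced genes had the lowest median of all 46 lists, -0.51 on the log2 scale, with 17 of 18 tested members below 0. Over all tested genes 47% were above 0. Of the 18 members 4 fell and none rose, against 0.552% and 1.13% of all tested genes. Ifi44 measured -1.94, -1.87, -1.48 and -1.61 under DMSO and -2.90, -3.17, -3.01 and -3.13 under MEHP, a fall of 2.51-fold (log2 -1.33 ± 0.12, adjusted p = 0.00481). The antiviral enzyme Rsad2 (viperin) fell 1.85-fold, from -1.48, -1.80, -2.02 and -2.13 to -2.46, -2.86, -2.98 and -2.66 (adjusted p = 0.0336). Xaf1, an inducer of apoptosis, fell 1.76-fold (adjusted p = 0.023), and Gbp3, a guanylate binding protein, fell 1.71-fold (adjusted p = 0.0311).

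Usp18 showed a wider difference of -1.68, but its MEHP arrays ranged from -5.93 to -3.69 and it missed the threshold (adjusted p = 0.0922). The transcription factor Stat2 was the only member above 0, at 0.40 (adjusted p = 0.0675). Ifi44 was called in all 8 fits that left out 1 array, whereas the other 3 genes were lost together when any 1 of 6 arrays was left out (each MEHP array, DMSO replicate 2 or DMSO replicate 3), and under normexp. Quantile scaling lost Rsad2, and a slide or replicate block lost Gbp3. Outside the list, and picked after their values were seen, Ifit3b (-0.65), Trim21 (-0.97), Irgm2 (-1.15) and Gvin1 (-1.37) also fell, while Isg20 rose by 0.67 on 1 of 2 probes. These 4 that fell were called in at most 1 of the 8 fits that left out 1 array. Irgm2 was above background on 2 MEHP arrays and entered the test through the DMSO arrays alone. Ifit3b belongs to a family of near-identical copies, and whether its probe also bound them was not tested.

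The promoters of these genes are shown because interferon acts through a known letter pattern, the interferon-stimulated response element. The pattern GAAA, any 2 bases, then GAAA was searched on both strands in the 250 bases before the start of each gene's first listed promoter (RefSeq, GRCm38.p6). It was found in 3.04% of 27025 promoters, in 8 of the 16 promoters found for the tested interferon list, and in 6 of the 49 found for all genes that fell. The called members of the list with a match were Rsad2 and Gbp3; the others that fell and carried one were Ifit3b, Irgm2, Saa3 and Tenm4. 5 of these are printed 5′ to 3′ on the gene's strand, with each match in capitals.
Rsad2 (chr12:26456453-26456702, minus strand): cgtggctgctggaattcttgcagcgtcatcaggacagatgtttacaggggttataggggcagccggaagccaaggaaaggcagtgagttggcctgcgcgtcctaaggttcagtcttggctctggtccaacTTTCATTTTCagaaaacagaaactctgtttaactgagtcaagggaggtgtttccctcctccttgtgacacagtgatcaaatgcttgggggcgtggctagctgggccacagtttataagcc
Gbp3 (chr3:142559794-142560043, plus strand): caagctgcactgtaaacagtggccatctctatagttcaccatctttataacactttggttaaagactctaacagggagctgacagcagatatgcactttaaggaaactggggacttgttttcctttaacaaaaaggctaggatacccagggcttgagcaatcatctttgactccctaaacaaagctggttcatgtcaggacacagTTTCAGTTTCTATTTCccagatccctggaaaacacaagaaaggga
Ifit3b (chr19:34607707-34607956, plus strand): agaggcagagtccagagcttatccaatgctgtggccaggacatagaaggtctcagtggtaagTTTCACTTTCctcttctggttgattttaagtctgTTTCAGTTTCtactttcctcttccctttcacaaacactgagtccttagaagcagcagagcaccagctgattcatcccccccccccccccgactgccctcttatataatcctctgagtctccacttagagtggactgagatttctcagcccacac
Irgm2 (chr11:58214727-58214976, plus strand): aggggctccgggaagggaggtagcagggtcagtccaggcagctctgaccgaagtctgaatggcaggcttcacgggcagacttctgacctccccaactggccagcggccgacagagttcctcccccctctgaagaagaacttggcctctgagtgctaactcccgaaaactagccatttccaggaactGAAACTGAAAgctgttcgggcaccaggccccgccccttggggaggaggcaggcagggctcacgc
Saa3 (chr7:46715677-46715926, minus strand): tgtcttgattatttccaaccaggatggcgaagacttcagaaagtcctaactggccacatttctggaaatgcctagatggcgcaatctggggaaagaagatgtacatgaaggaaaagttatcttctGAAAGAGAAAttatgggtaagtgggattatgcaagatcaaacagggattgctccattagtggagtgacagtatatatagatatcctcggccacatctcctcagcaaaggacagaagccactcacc

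In Gbp3 a pair of matches overlap near the start, and in Ifit3b a pair stand apart. Other patterns were searched in the 82 promoters found for the 111 genes that rose outside the reference lists and in the 49 of genes that fell. The E-box CACGTG occurred in 6 of the 49 (12.2%), as many as held the interferon pattern, and in 9 of the 82 (10.98%), against 6.05% of all promoters. The 9 included Per1, Tgfb2, Slc25a1 and Rec114. The antioxidant pattern TGACNNNGC occurred in 12 of the 82 (14.6%) and 3 of the 49 (6.12%), against 10.2%, and the sterol pattern TCACCCCA in 1 of the 82, Shisa4 (1.22%, against 1.26%), and none of the 49. Neither the PPAR-type repeat AGGTCANAGGTCA nor the retinoic acid receptor repeat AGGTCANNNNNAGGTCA was present in any of either set. They occurred in only 10 (0.037%) and 2 (0.0074%) of all 27025 promoters. With patterns this rare, their absence from sets of this size tells nothing. A match is a run of letters and was not tested for binding.

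**Figure D3:**
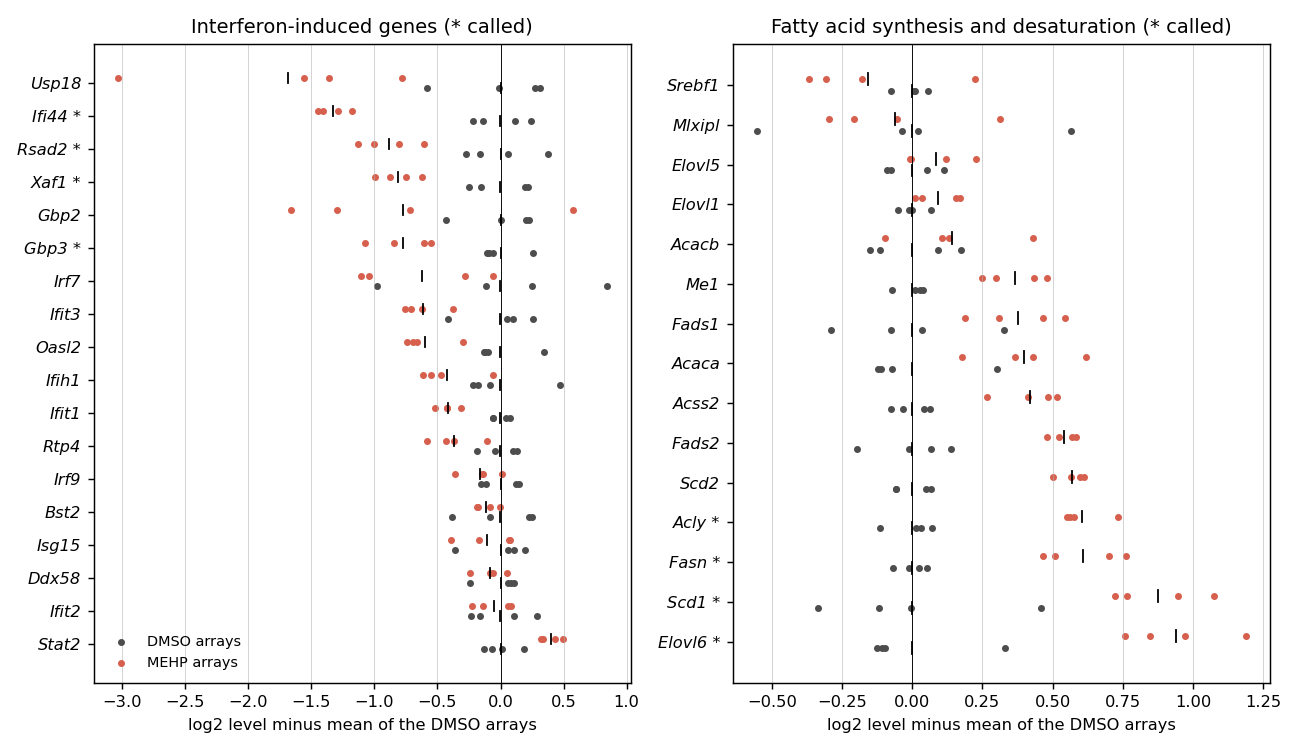
Level of every tested member of the interferon-induced list (left) and the fatty acid synthesis list (right) on each array, as log2 difference from the mean of the DMSO arrays, with MEHP in red, DMSO in grey, black ticks for group means and an asterisk for called genes. On the left 17 of 18 MEHP means lie below 0 and on the right 13 of 15 lie above 0, with overlap between the groups in the genes near 0.

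Few genes of the extracellular matrix lists were called. Of 17 tested proteoglycans and glycoproteins, 2 fell (Aspn and Dcn), against 0.552% of all tested genes. The median log2 fold change was -0.36, and 3 members were above 0, against 47% of all tested genes. Those 3 included Thbs2 and Fbln1, which lay in the dark patch. Dcn (decorin), which binds collagen and TGF-beta, measured 3.49, 4.05, 4.32 and 3.74 under DMSO and 2.30, 3.04, 3.09 and 2.67 under MEHP, a 2.18-fold fall (adjusted p = 0.0403). Replicate 1 was the lowest array in both groups, and the call held in 1 of the 8 fits that left out 1 array (without DMSO replicate 1).

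Among 15 tested collagens Col8a1 fell 1.59-fold, from 2.78, 2.86, 2.81 and 2.72 to 2.09, 2.04, 2.33 and 2.02 (adjusted p = 0.0113), with 5 of the 15 above 0 and a median of -0.30. Col3a1 had a larger difference of -0.72 that did not pass (adjusted p = 0.199), and Col18a1, the source of endostatin, lay on the other side with 0.57 (adjusted p = 0.0246). The elastic fibre protein Fbln5, in no list, had a log2 fold change of -0.72 and was called. Tgfbi, an adhesion protein induced by TGF-beta and also in no list, rose by 0.92. No gene of 13 tested matrix proteases and inhibitors was called, and 7 of them were above 0.

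In growth factor signalling Tgfb2 rose 1.85-fold on 2 of 2 probes, from 0.63, 0.46, 0.72 and 0.61 to 1.38, 1.54, 1.47 and 1.57 (adjusted p = 0.00581), and it was called in every fit that left out 1 array. Id3, an inhibitor of basic helix-loop-helix factors and a target of BMP signalling, rose 1.67-fold (adjusted p = 0.0155). Its relatives Id1 and Id2 had -0.18 and 0.01, and the other 16 of 18 tested members of the list were not called. Deptor, which binds and restrains mTOR, rose 2.05-fold, from between -1.27 and -0.90 under DMSO to 0.03, -0.09, -0.21 and 0.16 under MEHP (adjusted p = 0.00748). Igf1 had -1.30 with an adjusted p of 0.0871, the MEHP arrays ranging from -0.78 to 0.20 and the DMSO arrays from 0.32 to 1.79.

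Most of the other lists with a call held 1 called gene. Gsto2, a glutathione transferase of the omega class, rose 1.86-fold (adjusted p = 0.00581), Aldh9a1, which oxidizes aminoaldehydes, 1.55-fold (adjusted p = 0.0078), the clock repressor Per1 1.69-fold (adjusted p = 0.0163) and the small heat shock protein Cryab 1.62-fold (adjusted p = 0.0312). Genes that fell were Tfrc, the transferrin receptor (on 1 of 2 probes, 1.75-fold, adjusted p = 0.0312), Uros of haem synthesis (log2 fold change -0.68, adjusted p = 0.0224), the hypoxia gene Ankrd37 (1.78-fold, adjusted p = 0.0172) and the early response factor Egr2 (1.71-fold, adjusted p = 0.0192). Cryab was called in 2 of the 8 fits that left out 1 array and was not called with all 6 groups in 1 fit. Tfrc and Uros kept their calls together in 1 of the 8 fits that left out 1 array.

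No member of 25 of the 46 lists was called. With 1.68% of all tested genes called, a list of this size with no call is near the background. Respiratory chain subunits lay within -0.10 and 0.11 on the log2 scale in all 20 tested members. Glycolysis and lactate export, the pathway by which Sertoli cells feed germ cells, had 0 of 21 called with a median of -0.00, and Ldha and Slc2a1 differed by -0.08 and -0.28. Its highest value belonged to Pfkfb3, in the dark patch of DMSO replicate 4, which was at -0.36 without that array. The citric acid cycle (26 tested), the proteasome (26), DNA replication (35) and mitosis (24) had none called either. At an adjusted p under 0.05 without any limit on size, 335 genes (2.80% of those tested) passed in limma, and in these 6 lists none did.

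With the same background of 1.68% called, 0 calls in the lists that follow are near it too. Junction genes of the blood-testis barrier had 0 of 13 called, Gja1 and Tjp1 differing by -0.06 and 0.09. NRF2 targets, the antioxidant programme, had 0 of 19 called and a median of 0.18; Pgd passed on adjusted p alone (0.51, adjusted p = 0.0391) and Nqo1 did not (0.56, adjusted p = 0.107). Steroid and other nuclear receptors had 0 of 13 called, with Esr1, Ppara and Pparg between -0.17 and 0.04.

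Several lists without a call had most members on one side of 0, against 47% of all tested genes above it. Mitosis genes were above 0 in 22 of 24 members (median 0.17, Mki67 at 0.31 with an adjusted p of 0.336). Genes of the ATF4 amino acid response were above 0 in 3 of 21 (median -0.22, Atf5 at -0.41 with an adjusted p of 0.08 and Atf4 itself at 0.01). Endoplasmic reticulum chaperones were above 0 in 3 of 19 (median -0.17, Hspa5 at -0.32 with an adjusted p of 0.0691). Folate and one-carbon genes were above 0 in 3 of 16, antigen presentation in 2 of 11, the Wnt pathway in 3 of 13 and the proteasome in 6 of 26, while NRF2 targets were above 0 in 16 of 19 and DNA replication genes in 27 of 35.

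**Figure D4:**
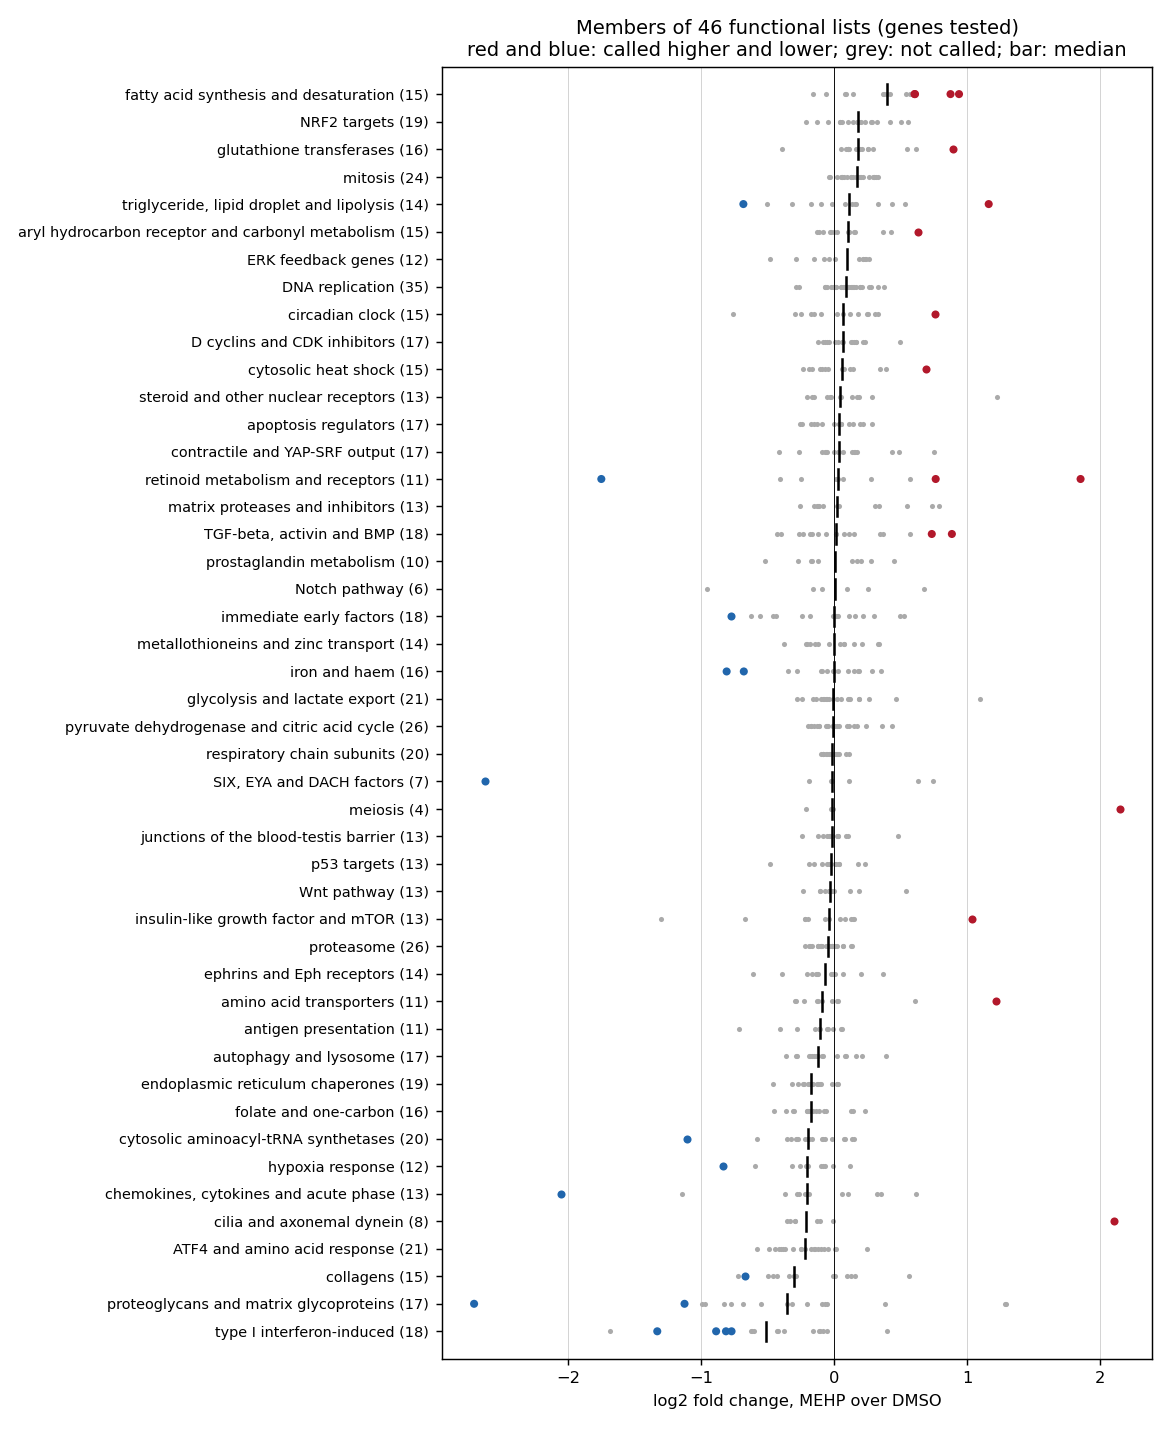
Log2 fold change of MEHP over DMSO for every tested member of the 46 functional lists, ordered by list median (black bar), with the number tested in brackets. Called genes are red (higher) or blue (lower), and grey points did not pass. The fatty acid list is at the top with a median of 0.40 and the interferon list at the bottom with -0.51, while respiratory chain and proteasome genes cluster near 0.

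Called genes were in 5 cases next to each other among protein-coding genes of the RefSeq annotation, and each pair moved the same way. The small heat shock genes Cryab and Hspb2 (log2 fold change 0.70 and 0.93) on chromosome 9 were one pair, Rnf183 and Wdr31 (0.61 and 0.71) on chromosome 4 another. Kank3 (1.17) lies beside the PPAR target Angptl4 on chromosome 17, and Acat3 (1.07) beside Acat2 on the same chromosome. Ucp2 and Ucp3, PPAR targets on chromosome 7, made up the fifth pair. Acat2 with Acat3, and Ucp2 with Ucp3, are gene duplicates, and cross-hybridization between them was not tested.

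All MEHP arrays sat in rows 1 and 3 of their slides and all DMSO arrays in rows 2 and 4, so that array row and treatment cannot be told apart in this comparison. BDB arrays shared the rows of MEHP, as did DINCH arrays, and a direct comparison of MEHP with BDB used the same test. It called 309 of 11941 genes (2.59%). The MEHP arrays are the same in both comparisons. Of the 12 genes that rose most against DMSO, 9 were also higher than in BDB, Aldh1a1 by 1.74 ± 0.09 (adjusted p = 0.000134), Sema3b by 1.15 ± 0.11 (adjusted p = 0.00350) and Kank3 by 1.21 ± 0.08 (adjusted p = 0.000748). Rec114, Gramd2 and Ngef did not pass, with 0.87 ± 0.34, 0.31 ± 0.15 and 0.71 ± 0.18.

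Among the genes that fell most, 7 could be tested against BDB and 5 were lower under MEHP, including Dhrs3 (-1.03 ± 0.20, adjusted p = 0.0253) and Car6 (-1.28 ± 0.31, adjusted p = 0.0481). Saa3 was tested and not called, with -1.31 against BDB and -0.85 against DINCH. The 4 fatty acid genes were all higher than in BDB, by 0.66 (Acly) to 1.11 (Fasn). Against DINCH 2 of them were higher, Fasn by 0.95 and Elovl6 by 0.82, and against DOM all 4 differences were below 0, from -0.69 (Elovl6, called) to -0.06 (Scd1). In contrast, none of the 4 interferon-induced genes passed against BDB, the differences running from -0.67 ± 0.18 for Ifi44 (adjusted p = 0.0646) to -0.13 ± 0.13 for Gbp3 (adjusted p = 0.573). Tfrc, Uros and Ankrd37 likewise had -0.14, -0.32 and 0.00 against BDB, none of them called. Against DINCH, whose arrays lay in the same rows as those of MEHP, all 4 interferon-induced genes were called lower.

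**Figure D5:**
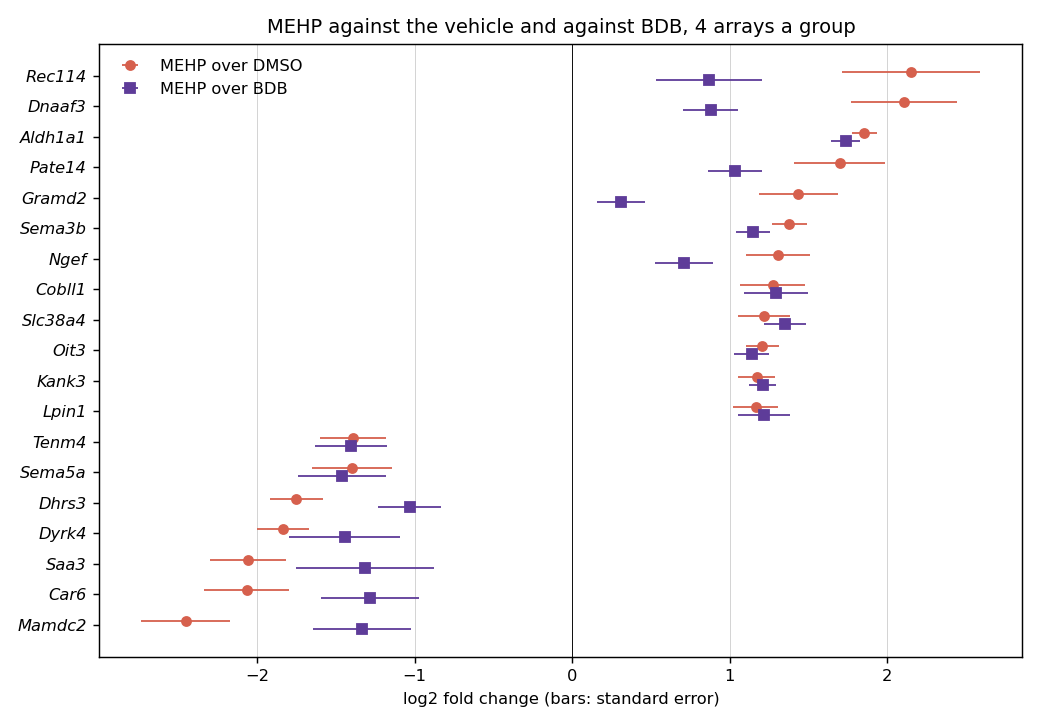
Log2 fold change of MEHP over DMSO (red circles) and of MEHP over BDB (purple squares), with standard errors, for the 19 of the 24 most changed genes that were tested in both. The red and purple points lie close together for Aldh1a1, Kank3, Lpin1 and Tenm4 and far apart for Rec114 and Dnaaf3.

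DINCH and DOM gave 2 further references at the same dose and time. DINCH arrays sat in rows 1 and 3, as MEHP arrays did. DOM arrays sat in rows 2 and 4, as DMSO arrays did, so row and compound cannot be told apart against DOM. MEHP differed from DINCH in 284 of 11836 genes (2.40%) and from DOM in 2324 of 11925 (19.5%). The interferon-induced genes were lower under MEHP than under DINCH in all 4 cases, by -1.34 (Rsad2) to -1.84 (Xaf1). Against DOM the direction was the other way for Ifi44, higher under MEHP by 0.87 ± 0.10 (adjusted p = 0.000361), and for Rsad2, higher by 0.74 ± 0.20 (adjusted p = 0.0202), while Xaf1 (-0.25) and Gbp3 (0.51) were not called. Against DMSO in their own fits, DINCH gave 0.34 for Ifi44 and 1.03 for Xaf1, and MEHP -1.33 and -0.81; these fits share the DMSO arrays.

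Dhrs3 was lower under MEHP than under DINCH (-2.11 ± 0.19, adjusted p = 0.00132) and DOM (-1.29 ± 0.24, adjusted p = 0.00365), as it was against BDB. Kank3 and Slc38a4 were the members of the top 12 risers that were also higher than under DINCH, by 0.96 ± 0.10 and 0.66 ± 0.15. Against DOM 4 of the 12 were called higher, namely Rec114, Ngef, Cobll1 and Slc38a4. Several risers were also called higher than DMSO under both DINCH and DOM, in fits that share the DMSO arrays. Among them were Aldh1a1 (1.33 under DINCH and 1.29 under DOM), Sema3b (1.63 and 1.18), Lpin1 (1.11 and 1.26) and Oit3 (1.06 and 0.96). Slc38a4 was called under neither (0.56 and 0.27), and Kank3 under DOM alone (1.18). Saa3 and Dyrk4, lower than in DMSO, were higher than under DOM by 3.25 and 2.33.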

How the data were processed

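TM4 cells were compared after 48 hours with 100 µM MEHP or vehicle, 4 arrays each. The authors extracted RNA, hybridized Cy3-labelled cRNA to one-colour 8x60K arrays and deposited Feature Extraction files, whose intensity column is the background-subtracted processed signal; the flag columns deposited with it mark outlier spots and spots well above background. The authors also deposited a value table of log2 values, shifted to the 75th percentile and centred on the median of all samples, which was used as an alternative.

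Here log2 of the processed signal (floor 1) minus the 75th percentile over non-control probes of each array was used, with outlier spots removed and replicate spots averaged. Probes entered the test when all arrays of MEHP, or all of DMSO, were well above background and past their 20th percentile. limma 3.58.1 (R 4.3.3) was fitted to both groups without a block. Names came from RefSeq transcript accessions, which named 26582 of 55681 probes (20145 genes). A gene is represented by its brightest called probe, or else its brightest tested probe, and a fold change against a group below background is a bound against the lowest signal well above background. Named were the 12 called genes that rose and the 12 that fell most outside the reference lists, every called list member, up to 3 of the highest-level members of lists without a call, and the cell type markers. Other genes named in the text, with or without a call, were picked after their values were seen. The genes and lists were chosen with earlier results of these data known. In simulated arrays with 200 changed probes of 24188, the fit recovered 76% of changes of 1 log2 unit and 98% of 2. The simulated noise was independent between probes, and no change near the limit of 1.5-fold was simulated. The recovery of such smaller changes, or under deviations that probes share, was thus not tested. Precision is limited by 4 arrays per group, and p-values measure the spread between those replicates. Alternatives covered scaling, background, filter, blocks, probe choice and arrays left out; the dark patches of 2 arrays were found after seeing the data.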

Additional observations from a re-analysis of the deposited data

Results flagged for a closer look

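In 246 sets of 4 arrays (123 named genes, MEHP and DMSO each), 15 had 1 array apart from the other 3 by more than Dixon's limit, and chance gives about 1 set in 20. Among called genes, replicate 1 was the one in 5 of 6: Ngef on MEHP replicate 1 (-0.062, others -0.75 to -0.65), Acly on MEHP replicate 1 (6.30, others 6.12 to 6.14), Cobll1 on DMSO replicate 1 (0.97, others 0.38 to 0.44), Dhrs3 on DMSO replicate 1 (0.53, others 1.14 to 1.20) and Elovl6 on DMSO replicate 1 (2.60, others 2.15 to 2.18). The sixth was Gbp3 on DMSO replicate 3 (-1.43, others -1.79 to -1.74).

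Genes without a call that stood apart on DMSO replicate 1 were Ccnb2 (5.71), Flna (7.67), Fzd2 (3.94) and Thra (2.40). On MEHP replicate 1 it was Nr3c1 (3.91), on MEHP replicate 4 Atf5 (8.11), on DMSO replicate 2 Gins3 (6.42), and on DMSO replicate 3 Psmc3 (7.46) and Ephb3 (6.26).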

How the results depend on the processing

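The count of 201 genes fell to 114 with normexp background correction, to 98 when detection on 1 array was enough and to 3 without a filter on dim probes (Aldh1a1, Angptl4 and Pdk4). It lay between 187 and 218 with quantile scaling, a slide block (213), the brightest probe alone, outlier spots retained, 6 groups fitted together, a trended variance, the deposited value table, or the dark patches left out (209, chosen after seeing the data). Leaving out 1 array gave 88 to 237 genes, with 116 without MEHP replicate 1, 88 without MEHP replicate 2, 88 without MEHP replicate 4 and 97 without DMSO replicate 3. Same-numbered arrays deviated together in replicates 1, 3 and 4 (correlation 0.45, 0.28 and 0.24) but not in 2 (-0.14), so the numbers were not taken to pair the samples; a replicate block gave 263 genes. For MEHP and DOM every pair exceeded 0.1, and the paired fit gave 2382 genes against 2324. Against BDB, 309 genes became 179 with normexp, 6 without the filter and 111 to 450 with 1 array left out (204 without MEHP replicate 1, 111 without MEHP replicate 2, 152 without MEHP replicate 4, 126 without BDB replicate 2, 149 without BDB replicate 4). Against DINCH, 284 became 19 without the filter, 166 with the replicate block and 83 to 307 with 1 array left out (132, 83, 143 and 121 without MEHP replicate 1, 2, 3 or 4, and 177 and 160 without DINCH replicate 1 or 4). Against DOM, 2324 became 1527 with normexp and 2094 to 2493 with 1 array left out. No named gene that was called reversed its direction in another setting. Changes of sign in genes without a call were not counted. Thbs2 and Pfkfb3, which were not called, did change sign with the dark patches left out. Dim probes, whose signal lies near background, set the limit of what could be measured, and the cause of the smaller counts was not tested.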
